A study of Mus musculus with 8 samples.

Results

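AP-1 (activator protein 1) is a transcription factor made of a pair of basic leucine zipper proteins. The 10 genes described here encode its subunits in the mouse: Fos, Fosb, Fosl1 and Fosl2 of the FOS family, Jun, Junb and Jund of the JUN family, and Batf, Batf3 and Atf3 of the BATF and ATF families. They were taken by name from 21911 protein-coding genes of the GENCODE annotation. A peak was assigned to a gene where it overlapped the gene body or the 3 kb on either side of it, which is called the locus here. The data were ATAC-seq peak lists of the cerebral cortex, in which peaks mark DNA that the transposase Tn5 can reach in nuclei. Male C57BL/6 mice had either bilateral carotid artery stenosis (BCAS, 4 mice) or a sham operation (sham, 4 mice) at 11 weeks of age. In BCAS, the right common carotid artery received a microcoil of 0.16 mm and the left one of 0.18 mm, and in sham both arteries were exposed without coils. Tissue was taken 3 weeks later, at 14 weeks, and each library came from 1 mouse. The labels name the right cortex, whereas the study's quality table names the cortex of the whole brain, so the side is not settled.

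FOS and JUN proteins bind DNA as dimers at the AP-1 site, TGACTCA or its reverse complement, and dimers with ATF proteins also bind the related cAMP response element. In neurons and glia, Fos, Fosb, Jun and Junb are immediate-early genes, whose promoters stand ready at rest and are switched on within minutes through serum response factor (SRF), ternary complex factors and CREB. Batf and Batf3 lack a transactivation domain and are best known from lymphocytes and dendritic cells, where they join IRF proteins on composite sites. Atf3 is a stress-induced member that is known from injured neurons and activated macrophages.

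Several peaks of these loci held the DNA elements through which such genes are known to be regulated. Their sequences are given in the direction of transcription, on GRCm38, with motif matches in capitals. The promoter peak of Fos, present in all 8 libraries, held a CArG box, the element that SRF binds, at -304 bp from the annotated start. That of Fosb held one at -262 bp and 2 EGR sites, the element of the EGR immediate-early factors, at -40 bp (in the sequence shown) and -372 bp. The Jun promoter held an AP-1-like site, TGACATCA, from -45 to -38 bp. The Jund promoter held a cAMP response element at -210 bp and 3 EGR sites. Junb had a CArG box on each side of its transcript, at -1446 and 2089 bp.
Fos, chr12:85473560-85473859, plus strand: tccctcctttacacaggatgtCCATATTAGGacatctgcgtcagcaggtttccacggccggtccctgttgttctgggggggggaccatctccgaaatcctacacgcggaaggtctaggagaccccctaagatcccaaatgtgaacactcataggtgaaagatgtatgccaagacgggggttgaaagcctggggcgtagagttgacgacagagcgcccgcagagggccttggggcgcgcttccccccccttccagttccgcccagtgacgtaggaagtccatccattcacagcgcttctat
Fosb, chr7:19310052-19310341, minus strand: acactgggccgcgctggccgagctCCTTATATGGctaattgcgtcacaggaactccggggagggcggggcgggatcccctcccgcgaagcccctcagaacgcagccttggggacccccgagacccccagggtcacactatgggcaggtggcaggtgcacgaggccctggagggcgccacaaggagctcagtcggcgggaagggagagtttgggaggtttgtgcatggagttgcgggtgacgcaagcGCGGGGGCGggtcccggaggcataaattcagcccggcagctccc
Jun, chr4:95052223-95052472, minus strand: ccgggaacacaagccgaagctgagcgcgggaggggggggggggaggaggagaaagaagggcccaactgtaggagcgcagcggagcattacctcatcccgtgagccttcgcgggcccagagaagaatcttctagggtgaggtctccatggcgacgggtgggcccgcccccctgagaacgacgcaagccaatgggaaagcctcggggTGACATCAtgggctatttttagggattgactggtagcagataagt
Jund, chr8:70698699-70698948, plus strand: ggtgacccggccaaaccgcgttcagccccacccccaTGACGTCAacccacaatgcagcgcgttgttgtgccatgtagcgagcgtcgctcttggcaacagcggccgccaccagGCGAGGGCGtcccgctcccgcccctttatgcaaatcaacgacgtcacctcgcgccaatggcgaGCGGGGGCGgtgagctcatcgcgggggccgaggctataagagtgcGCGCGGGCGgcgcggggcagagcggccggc
Junb upstream, chr8:84980099-84980218, minus strand: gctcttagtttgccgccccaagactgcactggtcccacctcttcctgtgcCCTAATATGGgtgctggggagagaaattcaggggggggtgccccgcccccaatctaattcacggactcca
Junb downstream, chr8:84976614-84976643, minus strand: gaagctctgcCCATATATGGgcctattcag

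Overlapping peaks of the 8 libraries were merged into 197916 regions, 36 of them in the 10 loci. Counted on both strands, the CArG box lay in 4 of the 36 (11.1%), against 2.39% of all regions. The EGR site, GCGNGGGCG, lay in 7 (19.4% against 2.49%). The cAMP response element, TGACGTCA, lay in 1 (2.78% against 0.804%) and the AP-1-like site in 2 (5.56% against 2.75%). The AP-1 site itself lay in 5 regions (13.9% against 15.9%), in single copies 353 bp after the start of Fosl1, 56 bp after that of Fosl2, in an intron of Atf3 and behind Jund, and in 2 copies in an intron of Batf3. No match of one motif overlapped a match of another in these regions. The 36 regions had a median width of 590 bp against 386 bp for all regions, so the shares are not per base, and a match describes the letters only. Regions over a transcript start, which most of the 10 loci have, were not compared separately, so the shares are not matched for distance from a start. RefSeq promoter windows, from 250 bp before to 50 bp after a start, were matched for 9 of the 10 genes. In the 32851 such windows, only the 250 bp before the start were searched. The EGR site was held by 4.70%, the AP-1-like site by 2.93%, the cAMP response element by 1.55% and the CArG box by 1.47%. Among the matched members, Fosb and Fosl2 held an EGR site there and Jun the AP-1-like site. No matched member held a CArG box or a cAMP response element there, so these shares cannot be set beside those given above.

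The lists held 107391 to 144988 peaks in sham and 119565 to 160720 in BCAS, covering 44.5 to 60.8 Mb and 48.9 to 66.3 Mb. Read counts are not part of them, so peak strength was compared as the percentile of the authors' fold enrichment within a list. The paper gives an average mapped depth per sample, which was not used here. The study's quality table puts sham 1, 2 and 3 and BCAS 1 in a class of high read GC content, and sham 4 and BCAS 2, 3 and 4 in a low class. Markers of cortical cells were present, with peaks in every library at 9 of 11 loci of excitatory neurons and 9 of 9 of astrocytes. Of 8 loci of inhibitory neurons, Sst had no peak in any library, and Vip and Lhx6 had none in some. Microglial markers moved with the groups: of 14 tested, 3 rose in covered length (Itgam, Gpr34 and Trem2) and 0 fell. All 14 had a positive log2 fold change with a median of 0.43, and their summed length was 23.4 to 29.9 kb in sham and 31.1 to 34.5 kb in BCAS. Itgam was at 0 bp in sham 1, 2 and 4 and Gpr34 in sham 1 and 4, so both reached the minimum of 200 bp for testing only through BCAS, and their calls are no separate support. Gpr34 lost its call without scaling (adjusted p = 0.0685 in limma). Trem2 lost its call without sham 2, BCAS 2 or BCAS 3, with GC class (0.111) or the number of peaks (0.0668) in the model, without scaling (0.108) and without flanks (0.29, adjusted p = 0.436), and was at -0.11 with flanks of 10 kb. Among the other lists, 0 of 10 excitatory neuron, 6 inhibitory neuron, 9 astrocyte, 9 oligodendrocyte, 9 endothelial, 2 leukocyte and 8 housekeeping genes tested passed. The median log2 fold changes of these lists were -0.08, 0.05, 0.05, -0.04, 0.11, 0.35 and 0.08 in that order. At an unadjusted limma p under 0.05, 3 endothelial genes and 1 leukocyte gene were higher and 1 excitatory and 1 inhibitory gene lower. Over all 17012 loci tested, 1804 were higher and 748 lower at that threshold. The summed endothelial length was 17.0 to 23.1 kb in sham and 22.9 to 26.3 kb in BCAS. Of the leukocyte markers, Cd8a, Ms4a1, Ly6g and S100a9 were at 0 bp in all 8 libraries and Cd3e, S100a8 and Ccr2 in some. Cd4 was at 822 ± 299 bp in sham and 1195 ± 212 bp in BCAS, with overlap (n = 4 each; log2 fold change 0.49, limma adjusted p = 0.218). In bulk tissue, more cells of a type and more open chromatin per cell cannot be told apart, and the part of microglia in the values that follow was not tested.

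At the AP-1 loci themselves, the covered length passed the test at 0 of the 10 genes. The test was limma on log2 of the covered length, scaled to the total of each library, plus 200 bp, with a Benjamini-Hochberg adjusted p under 0.05. Over all 17012 loci tested, 3.15% rose and 0.376% fell. At an unadjusted limma p under 0.05, 2 members were higher (Batf and Atf3) and 0 lower, against 1804 higher and 748 lower of all 17012 loci. Of the 10 log2 fold changes 6 were above 0, and their median was 0.01, against 0.0014 over all loci. The 4 BCAS libraries lay above the 4 sham libraries at 1 member, Batf, against 6.03% of all loci, and below them at 0 members, against 2.47%.

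**Figure D1:**
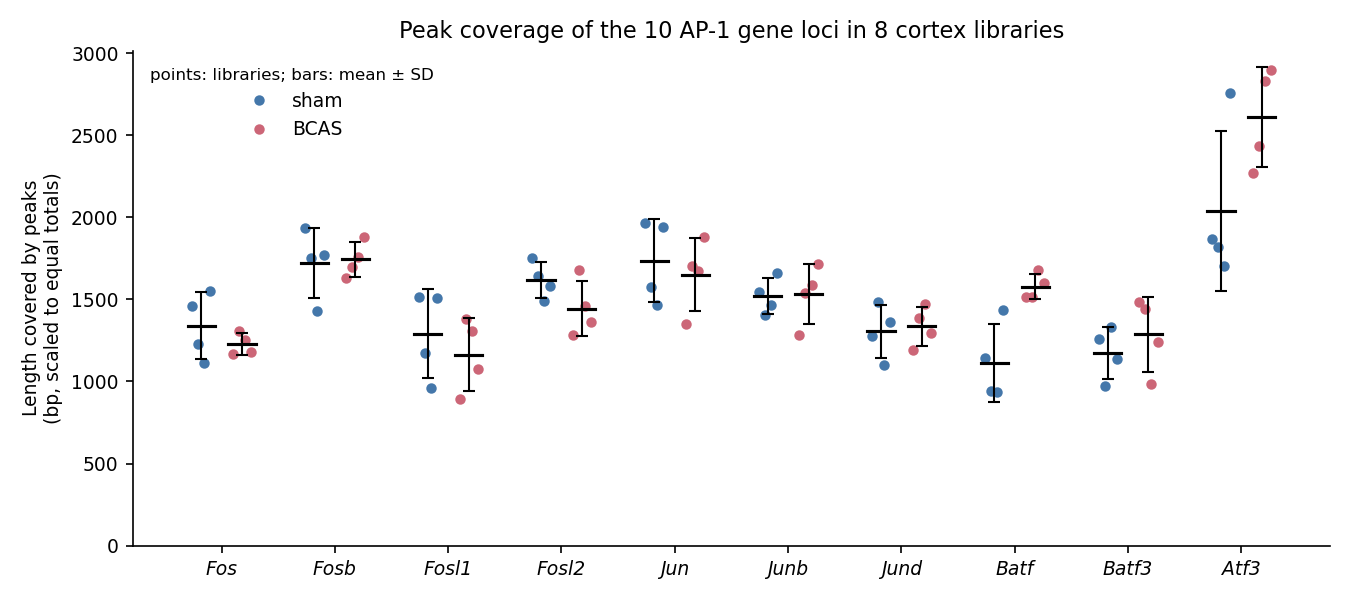
Length of DNA covered by peaks at each locus (gene body with 3 kb on each side; vertical axis in bp, scaled to equal library totals) in 4 sham and 4 BCAS libraries, with points for libraries and bars for mean ± SD. The groups overlap at 9 of the 10 genes, and at Batf the 4 BCAS libraries (1515 to 1676 bp) lie above the 4 sham libraries (933 to 1437 bp).

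At each of the 4 FOS genes, the covered lengths of sham and BCAS overlapped. At Fos (chr12:85473890-85477273, plus strand), the scaled length was 1459, 1230, 1112 and 1554 bp in sham 1 to 4 and 1165, 1307, 1255 and 1178 bp in BCAS 1 to 4. All BCAS values lay inside the range of sham. The log2 fold change was -0.10 (SE 0.13, 95% interval -0.37 to 0.16, limma adjusted p = 0.827). Fos had 3 peak regions, with middles at -1677, -86 and 704 bp from the start, and all were called in all 8 libraries. The outer upstream region was weak, in the 2.6th to 32.6th percentile of a list, and the promoter region lay in the 58.6th to 70.3rd.

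Fosb (chr7:19302696-19310051, minus strand) also encodes the long-lived ΔFOSB protein of chronically stimulated neurons. Its scaled length was 1935, 1751, 1428 and 1772 bp in sham and 1633, 1699, 1759 and 1881 bp in BCAS. The groups overlapped, with a log2 fold change of 0.02 (SE 0.12, interval -0.22 to 0.27). In every library a peak in an intron, with its summit 1305 to 1373 bp after the start, was stronger (72.4 to 89.2) than the promoter peak (60.5 to 78.9). Another region, past the end of Fosb at the start of Gm26802, was at 75.8, 80.1, 87.6 and 79.3 in sham and 74.1, 72.1, 25.5 and 67.9 in BCAS. Percentiles of all sham above all BCAS libraries were found at this 1 of the 36 regions and at 1.38% of all regions.

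Fosl1 and Fosl2 encode FRA-1 and FRA-2, which lack the strong transactivation domain of FOS. At Fosl1 (chr19:5447547-5455946, plus strand) the scaled length was 1515, 1175, 962 and 1509 bp in sham and 892, 1381, 1306 and 1074 bp in BCAS, a log2 fold change of -0.13 (SE 0.16, interval -0.45 to 0.20). At Fosl2 (chr5:32135801-32157842, plus strand) it was 1750, 1644, 1492 and 1580 bp in sham and 1284, 1676, 1457 and 1360 bp in BCAS, a log2 fold change of -0.15 (SE 0.12, interval -0.39 to 0.10). The groups overlapped at both, at Fosl2 by BCAS 2 alone. The promoter peak of Fosl2 was the widest of the 36 regions in every library, at 1001 to 1101 bp as deposited. The start base of Fosl1 lay inside a peak in every library but BCAS 4, whose peak there was the narrowest (389 bp, against 506 to 694 bp).

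The JUN genes have a single exon, and each had a peak over its start in all 8 libraries. At Jun (chr4:95049034-95052222, minus strand) the scaled length was 1964, 1574, 1468 and 1938 bp in sham and 1349, 1704, 1674 and 1879 bp in BCAS. The groups overlapped, with a log2 fold change of -0.06 (SE 0.13, interval -0.34 to 0.21). As deposited, the promoter peak of Jun was 880 to 953 bp wide over the 8 libraries and a second upstream peak 384 to 422 bp, both also within the antisense gene Junos. Per length, the Jun locus was the most covered of the 10 on average, with 17.5 to 18.9% of its bases, and Jund, with 14.1 to 20.1%, overlapped it. The Atf3 locus was the least covered on average (2.95 to 5.29%), and Batf (3.40 to 6.69%) overlapped it.

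At Junb (chr8:84974484-84978718, minus strand) the scaled length was 1546, 1406, 1468 and 1658 bp in sham and 1281, 1541, 1585 and 1717 bp in BCAS, a log2 fold change of 0.01 (SE 0.12, interval -0.25 to 0.26). The promoter peak and both flanking peaks that hold a CArG box were called in all 8 libraries. Jund (chr8:70698949-70700616, plus strand) is the JUN gene that is expressed without stimulation. Its scaled length was 1277, 1481, 1100 and 1364 bp in sham and 1193, 1387, 1471 and 1293 bp in BCAS (log2 fold change 0.03, SE 0.12, interval -0.23 to 0.29). Both genes had overlapping groups. Jund had a promoter peak and a weak peak at the gene's end (1.2 to 11.1) in all 8 libraries, a peak in the coding exon in sham 2 only, and a peak 4000 bp from the start, with an AP-1 site, in BCAS 1 and 3 only.

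**Figure D2:**
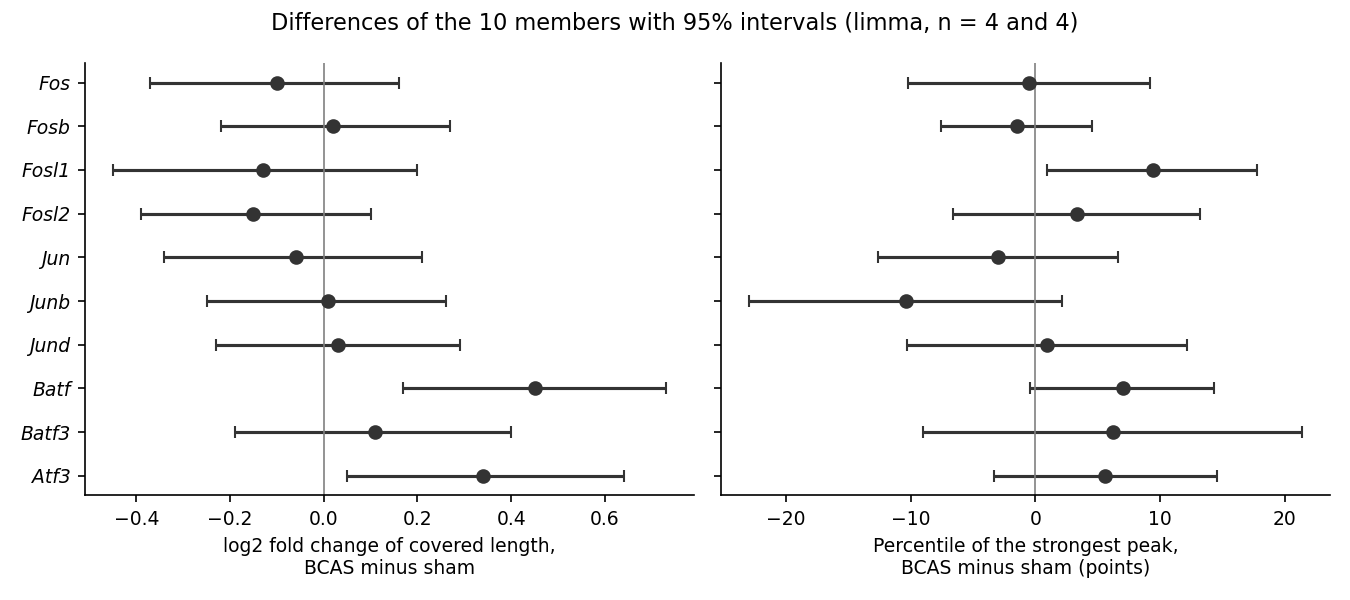
Differences between BCAS and sham with 95% intervals from limma for the 10 genes, in the scaled length covered at the locus (left, log2 scale) and in the percentile of its strongest peak within the library's list (right, percentile points), 4 libraries a group. On the left the intervals of Batf (0.17 to 0.73) and Atf3 (0.05 to 0.64) lie above 0 before adjustment, and on the right that of Fosl1 does (0.9 to 17.8); adjusted over all loci, no gene passed.

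Batf had the largest difference of the 10 in scaled covered length and missed the threshold. Atf3 exceeded it with lists of equal length (0.62 against 0.46), at a -log10 q of 5 or more (0.48 against 0.47) and without flanks (0.34 against 0.18). Batf (chr12:85686669-85709087, plus strand) lies 209.4 kb from Fos. Its scaled length was 1140, 941, 933 and 1437 bp in sham and 1516, 1515, 1676 and 1600 bp in BCAS, or 1113 ± 237 and 1577 ± 77.4 bp (mean ± SD, n = 4 each). Every BCAS library lay above every sham library. The log2 fold change was 0.45 (SE 0.13, 95% interval 0.17 to 0.73), with an unadjusted limma p of 0.00348 and an adjusted p of 0.0747. It passed without sham 4 (0.56, adjusted p = 0.0190), with lists of equal length (0.46, 0.0329), without scaling (0.53, 0.0467) and with the number of peaks as a covariate (0.51, 0.0474). It was 0.32 with read GC class added to the model (adjusted p = 0.308) and 0.18 without the flanks (adjusted p = 0.544), and over all alternatives its adjusted p was between 0.0190 and 0.544. Within the high GC class the log2 difference was 0.51 and within the low class 0.13.

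The peaks of Batf lay inside and behind the gene. No peak crossed its annotated start in any library, and only BCAS 1 had a peak in the first part of the gene, at 134 bp. Region 2, in an intron 11716 bp from the start, was among the strongest peaks of a list: it was at the 79.2nd, 96.8th, 93.9th and 96.2nd percentile in sham and the 99.3rd, 99.3rd, 98.9th and 96.7th in BCAS. The groups overlapped by BCAS 4. Region 3, in an intron 18911 bp from the start, was at 72.3, 87.2, 81.2 and 82.0 in sham and 93.6, 89.9, 89.5 and 91.3 in BCAS, without overlap. It held a site, GAGGAAGT on the minus strand, for PU.1, a factor of microglia and other myeloid cells, which 2.78% of the 36 regions and 4.78% of all regions held. Region 4, behind the end of the gene, had a peak of 419, 339, 394 and 331 bp in BCAS 1 to 4 and of 200 bp in sham 4, and none in sham 1, 2 and 3. Its percentile was 88.7, 79.3, 82.8 and 66.4 in BCAS and 21.6 in sham 4. The sequence around the median summit of region 4, shown because it differed most in presence, held none of the motifs counted above.
Batf region 4, chr12:85710765-85710965, plus strand: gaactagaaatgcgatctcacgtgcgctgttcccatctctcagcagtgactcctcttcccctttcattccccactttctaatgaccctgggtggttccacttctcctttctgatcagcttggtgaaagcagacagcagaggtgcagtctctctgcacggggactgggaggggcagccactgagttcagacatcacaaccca

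**Figure D3:**
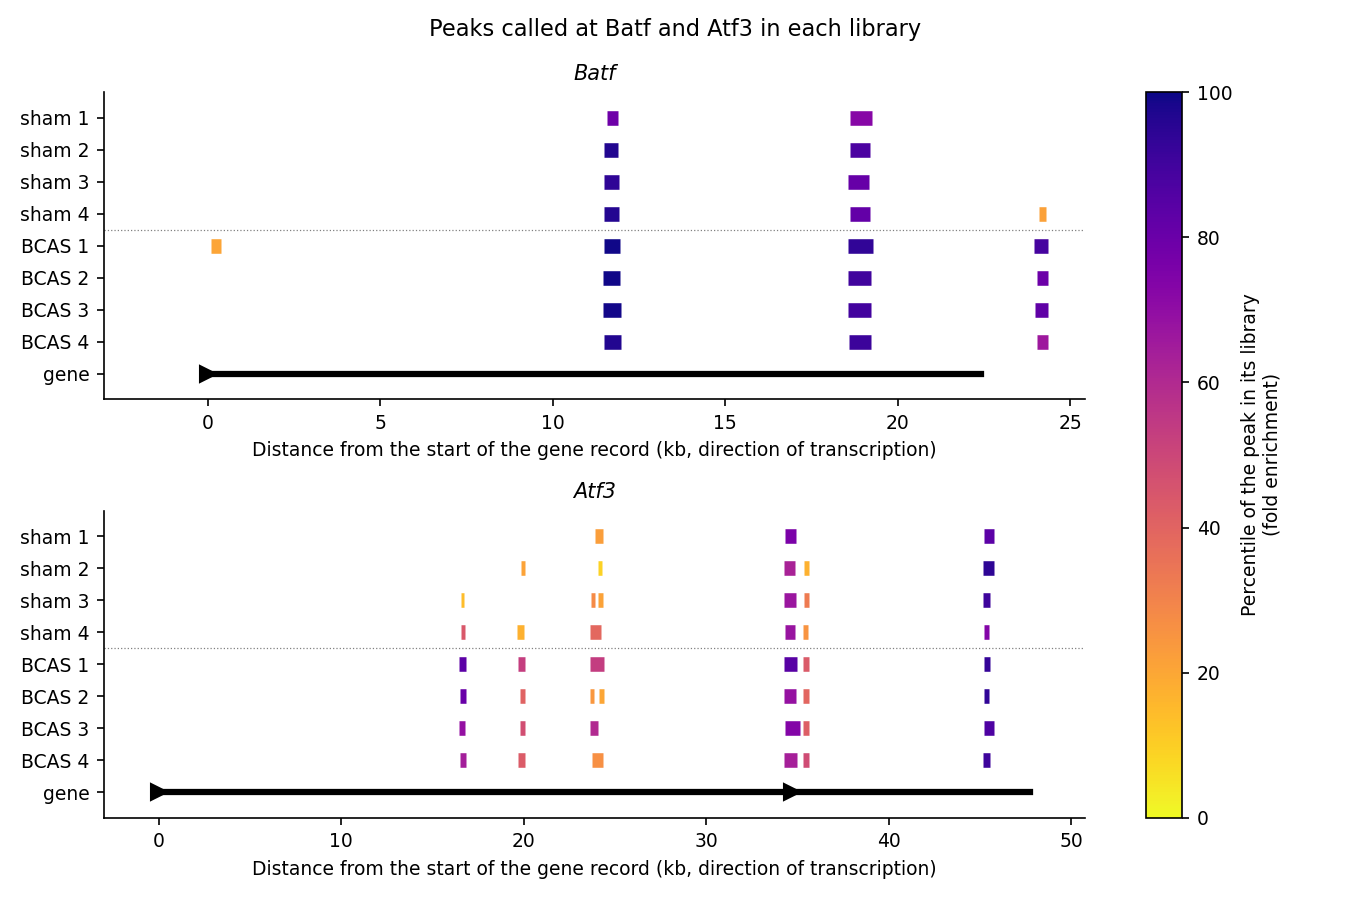
Peaks called at Batf (top) and Atf3 (bottom) in each of the 8 libraries, by distance from the start of the gene record in the direction of transcription (kb), coloured by the percentile of the peak within its library; black bars are the gene records and triangles transcript starts. The Batf peak behind the gene is present in the 4 BCAS libraries and sham 4, and Atf3 regions 5 and 6 in the 4 BCAS and in 2 sham libraries each.

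Atf3 (chr1:191170296-191218039, minus strand) spans 47.7 kb because its record begins with a long transcript, and the shorter transcript starts 34699 bp further on. No library had a peak within 1 kb of the long start. The region over the short start (region 3) was called in all 8, with 630, 605, 633 and 538 bp in sham and 703, 663, 821 and 688 bp in BCAS as deposited. Over the locus, the scaled length was 1868, 1817, 1706 and 2758 bp in sham and 2269, 2436, 2832 and 2896 bp in BCAS, or 2037 ± 486 and 2608 ± 304 bp (n = 4 each). Sham 4 lay inside the range of BCAS and the other sham libraries below it. The log2 fold change was 0.34 (SE 0.14, 95% interval 0.05 to 0.64), with an unadjusted limma p of 0.0234 and an adjusted p of 0.220. It passed without sham 4 (0.49, adjusted p = 0.0300), was 0.62 with lists of equal length (adjusted p = 0.0884) and 0.14 with GC class in the model (adjusted p = 0.619, the highest of the alternatives), and was 0.31 within the high and -0.02 within the low GC class.

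Regions 5 and 6 of Atf3, both intronic, were called in the 4 BCAS libraries and in 2 sham libraries each. Region 6 was at the 83.3rd, 80.2nd, 69.0th and 64.1st percentile in BCAS, against 14.3 in sham 3, 44.0 in sham 4 and no peak in sham 1 and 2. Region 5 was at 52.8, 40.3, 47.6 and 42.7 in BCAS, against 21 in sham 2, 17.3 in sham 4 and no peak in sham 1 and 3. Region 2, behind the short start, was called in 3 sham (17.2 to 32.5) and 4 BCAS libraries (39.1 to 48.1). The groups did not overlap in percentile at any of these 3 regions. The strongest Atf3 peak, region 1, was at 73.6 to 94.2 in sham and 87.0 to 93.7 in BCAS, with overlap. The sequences around the median summits of regions 5 and 6 held none of the motifs counted above.
Atf3 region 5, chr1:191197978-191198178, minus strand: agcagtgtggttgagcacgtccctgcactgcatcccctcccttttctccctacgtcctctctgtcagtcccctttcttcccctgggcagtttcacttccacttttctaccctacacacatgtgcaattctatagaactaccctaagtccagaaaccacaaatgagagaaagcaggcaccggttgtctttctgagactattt
Atf3 region 6, chr1:191201276-191201476, minus strand: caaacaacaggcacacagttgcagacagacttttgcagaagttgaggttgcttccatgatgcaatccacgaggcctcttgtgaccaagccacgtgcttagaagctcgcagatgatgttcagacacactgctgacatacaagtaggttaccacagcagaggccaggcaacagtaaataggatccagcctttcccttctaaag

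Batf3 (chr1:191097847-191108945, plus strand), 61.4 kb from Atf3, is known for its need in cross-presenting dendritic cells. Its scaled length was 1258, 973, 1333 and 1135 bp in sham and 1486, 1439, 983 and 1243 bp in BCAS (log2 fold change 0.11, SE 0.14, interval -0.19 to 0.40). The groups overlapped. The log2 fold change was -0.30 without the flanks, 0.42 at a -log10 q of 5 or more (limma adjusted p = 0.161), 0.27 with lists of equal length, 0.21 with flanks of 10 kb or without BCAS 3, and 0.03 to 0.06 without sham 2, BCAS 1 or BCAS 2. Of its 6 regions only region 6, behind the gene, was called in all 8 libraries, at 3.6 to 48.7 in sham and 47.0 to 59.8 in BCAS, with overlap. The region at the start of its basic transcript was called in sham 2, 3 and 4 and in the 4 BCAS libraries. Region 3, the intron with 2 AP-1 sites, had a peak of 354, 558, 633 and 402 bp in sham and of 521, 303 and 244 bp in BCAS 1, 2 and 4, with none in BCAS 3. After scaling, region 3 was wider in every sham than in any BCAS library, by 1 bp between sham 1 (417 bp) and BCAS 1 (416 bp).

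**Figure D4:**
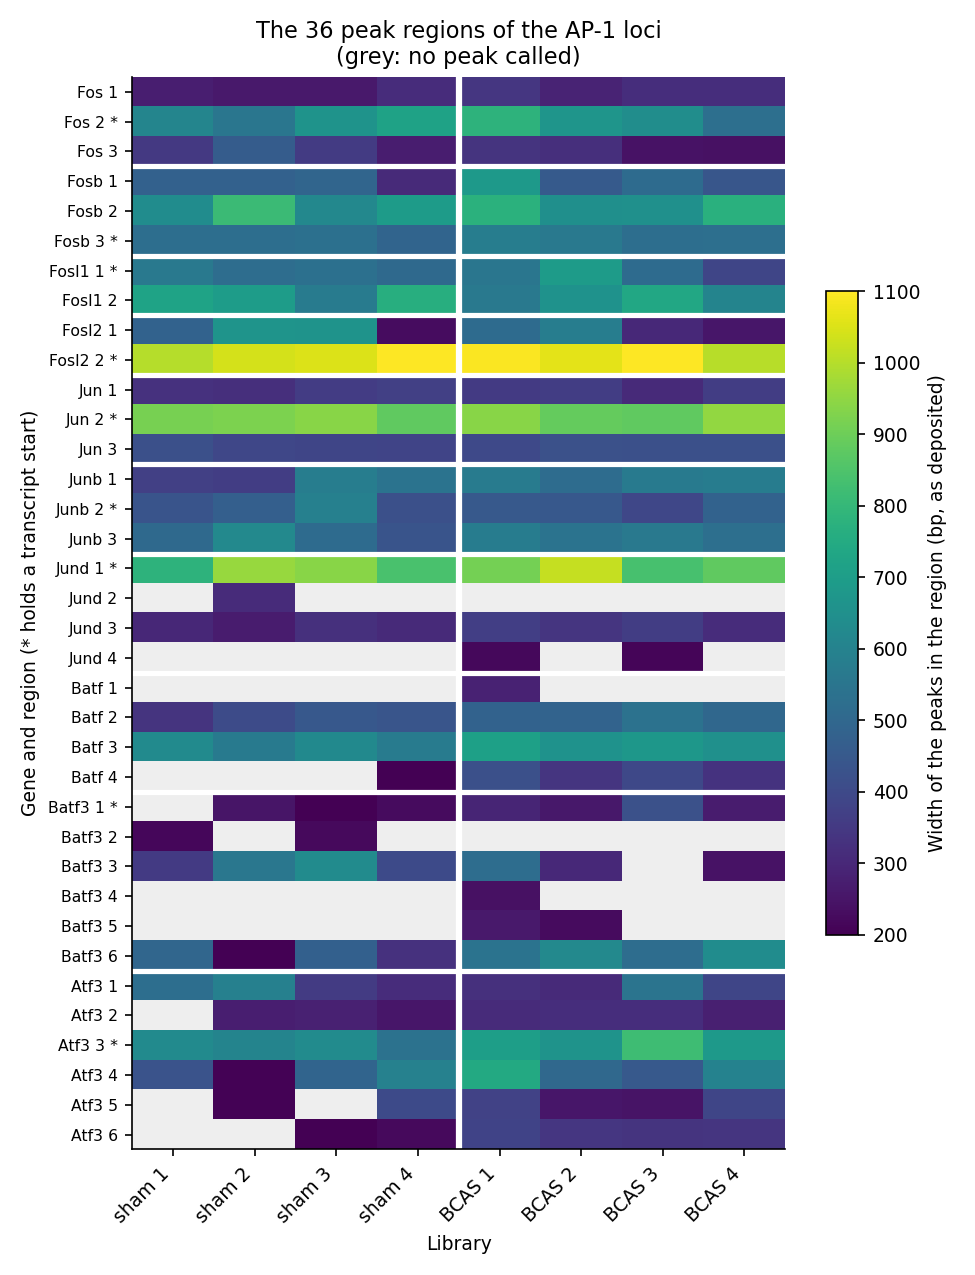
Width of the peaks in each of the 36 regions of the 10 loci (rows, numbered by chromosome position; asterisk, holds a transcript start) in each library (columns), in bp as deposited; grey marks no peak. The FOS and JUN rows are filled in nearly all libraries, while rows of Batf, Batf3 and Atf3 are filled unevenly, with 41 filled cells in sham and 51 in BCAS.

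By presence, 24 of the 36 regions were called in all 8 libraries, against 36.2% of all regions. At the 7 FOS and JUN genes 18 of 20 regions were, and at Batf, Batf3 and Atf3 6 of 16. At the FOS and JUN genes each library had 18 or 19 of the 20. At Batf, Batf3 and Atf3, sham 1 to 4 had a peak in 8, 10, 11 and 12 of the 16 regions and BCAS 1 to 4 in 15, 13, 11 and 12, so the groups overlapped, and the library with the most, BCAS 1, also had the longest list. No region of the 10 loci was called in every BCAS and no sham library, against 1.62% of all regions, or the reverse, against 0.0945%. With at least 3 BCAS and at most 1 sham library as the rule, 1 of the 36 was counted, Batf region 4, against 4.52%.

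By strength, 5 of the 36 regions were higher in every BCAS than in any sham library (Batf regions 3 and 4, Atf3 regions 2, 5 and 6), with no peak counted as 0, against 5.54% of all regions. By width the count depended on the scaling. As deposited, 7 were wider in every BCAS library (Batf 2, 3 and 4, Batf3 1 and 6, Atf3 3 and 6) and 0 in every sham library, against 4.58% and 0.989% of all regions. Scaled to equal totals, 2 were wider in BCAS (Batf region 4 and Atf3 region 6) and 1 in sham (Batf3 region 3, by 1 bp), against 3.19% and 2.10%.

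At the promoters, the annotated start base lay inside a peak in all 8 libraries at 6 of the 10 genes (60.0%), against 49.5% of all protein-coding genes. The length covered within 1 kb of the start passed the limma test at 0 of the 8 members with enough coverage. Among 13506 genes, 0.807% were higher and 0.0222% lower. At an unadjusted p under 0.05, 0 of the 8 members passed, against 606 higher and 211 lower of the 13506 genes. The log2 fold change was -0.16 (SE 0.14) at Junb, -0.15 (SE 0.13) at Fos, between -0.07 and 0.00 at Fosb, Fosl1, Fosl2, Jun and Jund, and 0.51 (SE 0.29, interval -0.09 to 1.11) at Batf3. Batf3 averaged 171 bp in sham and 307 bp in BCAS and so reached the minimum for testing only through BCAS. Its value was 0.23 without sham 1, 0.30 with GC class in the model, 0.82 at a -log10 q of 5 or more and 0.96 with a pseudocount of 50 bp. The groups overlapped at all 8, while 2.0% of genes were higher and 0.8% lower in BCAS without overlap. Batf and Atf3 had too few peaks at their annotated starts to be tested.

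The percentile of a locus's strongest peak, taken within each library's own list and not scaled, passed the limma test at 0 of 10 members. Among 16243 genes with a peak in all libraries, 0.339% were higher and 0.0123% lower. The median difference over these genes was 0.81 points. At an unadjusted limma p under 0.05, 1 member was higher, Fosl1, against 1657 higher and 432 lower of the 16243 genes. The groups overlapped at all 10, while 6.61% of genes were higher and 1.54% lower in BCAS without overlap. Fosl1 was at 67.3, 70.8, 73.2 and 67.5 in sham and 80.4, 79.6, 70.8 and 85.4 in BCAS, a difference of 9.4 points (SE 3.8, interval 0.9 to 17.8, adjusted p = 0.339), and of 3.1 points by -log10 q, where its unadjusted p was 0.108. Its strongest peak lay behind the gene at the start of Ccdc85b, so both genes share this value. Junb was at 46.0, 47.4, 48.4 and 51.6 in sham and 39.5, 46.4, 31.4 and 34.5 in BCAS, a difference of -10.4 points (SE 5.6, interval -23.0 to 2.1), which was 0.3 points by -log10 q. Batf was at 91.6 ± 8.30 in sham and 98.6 ± 1.28 in BCAS (n = 4 each; 7.0 points, SE 3.3, interval -0.4 to 14.3), and the difference was 2.9 points without sham 1. By -log10 q, 0 members passed. At an unadjusted limma p under 0.05, Batf (10.7 points, adjusted p = 0.241) and Batf3 (18.4 points, adjusted p = 0.320, against 6.2 by fold enrichment) were higher. Of the 16243 genes, 1859 were higher and 263 lower by that measure and threshold. The Batf3 difference by fold enrichment was 1.0 point without sham 2 and 4.0 without BCAS 2, against 10.8 without sham 3, and that of Atf3, 5.6 points, was 1.7 without sham 4, 8.5 without sham 2 and 10.2 with GC class in the model.

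Of 24 partner genes with a basic leucine zipper, 1 rose in covered length and 0 fell, with a median log2 fold change of 0.10, against 3.15% and 0.376% of all loci, so the count was near that of all loci. The gene was Nfe2l2, which encodes the antioxidant regulator NRF2. Its scaled length was 1933, 2144, 1956 and 2237 bp in sham and 2589, 2809, 3157 and 3036 bp in BCAS, without overlap (log2 fold change 0.45, SE 0.11, limma adjusted p = 0.0253). Mafg, a small MAF partner of NRF2, did not overlap either but did not pass (0.34, SE 0.11, adjusted p = 0.106). It passed limma without flanks (0.64, adjusted p = 0.0261), with lists of equal length (0.36, 0.0365) and with the number of peaks as a covariate (0.36, 0.0428). With GC class in the model it was 0.31 (adjusted p = 0.246) and with flanks of 10 kb 0.26 (0.22).

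Of 24 genes of the MAP kinase pathways that act on AP-1, 1 rose and 1 fell, with a median of 0.09. For this and the next 3 lists, the shares over all loci are again 3.15% and 0.376%, and counts of 1 in lists of 10 to 24 genes are no result about the lists. Dusp1, a phosphatase that switches off JNK and p38, was at 3572, 3104, 2644 and 3093 bp in sham and 4108, 4212, 4241 and 4035 bp in BCAS (log2 fold change 0.40, SE 0.10, limma adjusted p = 0.0339). Map2k4, a kinase that activates JNK and p38, was at 3770, 3738, 4182 and 3327 bp in sham and 2937, 2616, 2578 and 2734 bp in BCAS (-0.44, SE 0.10, adjusted p = 0.0219). Neither pair of groups overlapped. Of 12 regulators of Fos, 10 were found and tested (SRF, ternary complex factors, RSK and MSK kinases, coactivators), and 1 rose and 0 fell, with a median of -0.01. This was Rps6ka1, which encodes the kinase RSK1 (1760, 2141, 2094 and 2164 bp in sham, 2648, 2635, 3211 and 2855 bp in BCAS; 0.44, SE 0.11, adjusted p = 0.0336). Elk1, a ternary complex factor, was at 0.58 (SE 0.17, adjusted p = 0.0764) and passed without sham 1 (0.74, adjusted p = 0.0179). It also passed limma with the number of peaks as a covariate (0.70, adjusted p = 0.0412) and with the replicate number as a block (0.58, 0.017). Without flanks it was 0.34 (adjusted p = 0.579) and with GC class in the model 0.49 (0.326).

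Of 21 tested textbook targets of AP-1, 1 rose and 0 fell, with a median of 0.11. Tnf, an inflammatory cytokine that microglia also make, was listed at 0 bp in all 4 sham libraries and at 435, 466, 519 and 635 bp in BCAS (limma adjusted p = 0.00181). It reached the minimum for testing only through BCAS, so its call is a description, and no fold is given. Plau, the urokinase, was at 597 ± 244 bp in sham and 1093 ± 173 bp in BCAS (n = 4 each) without overlap, did not pass (log2 fold change 0.74, SE 0.20, adjusted p = 0.0518) and passed without sham 2 or sham 4 (0.0233 and 0.0322). It also passed limma with the replicate number as a block (adjusted p = 0.0101) and a pseudocount of 1000 bp (0.0339). Without flanks it was 0.20 (adjusted p = 0.765). Mmp3 and Mmp10, matrix metalloproteases, had no peak in any library. Of 16 immediate-early genes outside AP-1, 1 rose (Dusp1, also counted above) and 0 fell, with a median of -0.01. Nr4a3, an orphan nuclear receptor, was lower in every BCAS than in any sham library without passing (-0.29, SE 0.11, adjusted p = 0.157).

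At a -log10 q of 5 or more and without flanks, Tnf fell below the minimum of 200 bp and was not tested. The other 4 calls also depended on the settings. Nfe2l2, Map2k4, Dusp1 and Rps6ka1 had log2 fold changes of 0.36, -0.35, 0.40 and 0.38 in limma with GC class in the model (adjusted p = 0.132, 0.125, 0.123 and 0.16), and of 0.53, -0.35, 0.49 and 0.52 without scaling (0.0716, 0.511, 0.107 and 0.164). Map2k4 also lost its call at a -log10 q of 5 or more (-0.23, adjusted p = 0.246), with lists of equal length (-0.25, 0.118) and with median-of-ratios scaling (-0.45, 0.0651). Nfe2l2 lost it at a -log10 q of 5 or more (0.40, 0.0546), Dusp1 with lists of equal length (0.36, 0.0545), and Rps6ka1 with the number of peaks as a covariate (0.44, 0.0611) and median-of-ratios scaling (0.43, 0.0570). All 4 lost it without sham 2, sham 3, BCAS 2 or BCAS 3, at 0.41 to 0.47, -0.44 to -0.39, 0.33 to 0.41 and 0.38 to 0.47. So did Nfe2l2 without sham 1 or BCAS 4, Dusp1 without BCAS 1 or BCAS 4, and Rps6ka1 without sham 1, BCAS 1 or BCAS 4. The highest adjusted p with 1 library left out was 0.095, 0.0698, 0.0983 and 0.13.

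**Figure D5:**
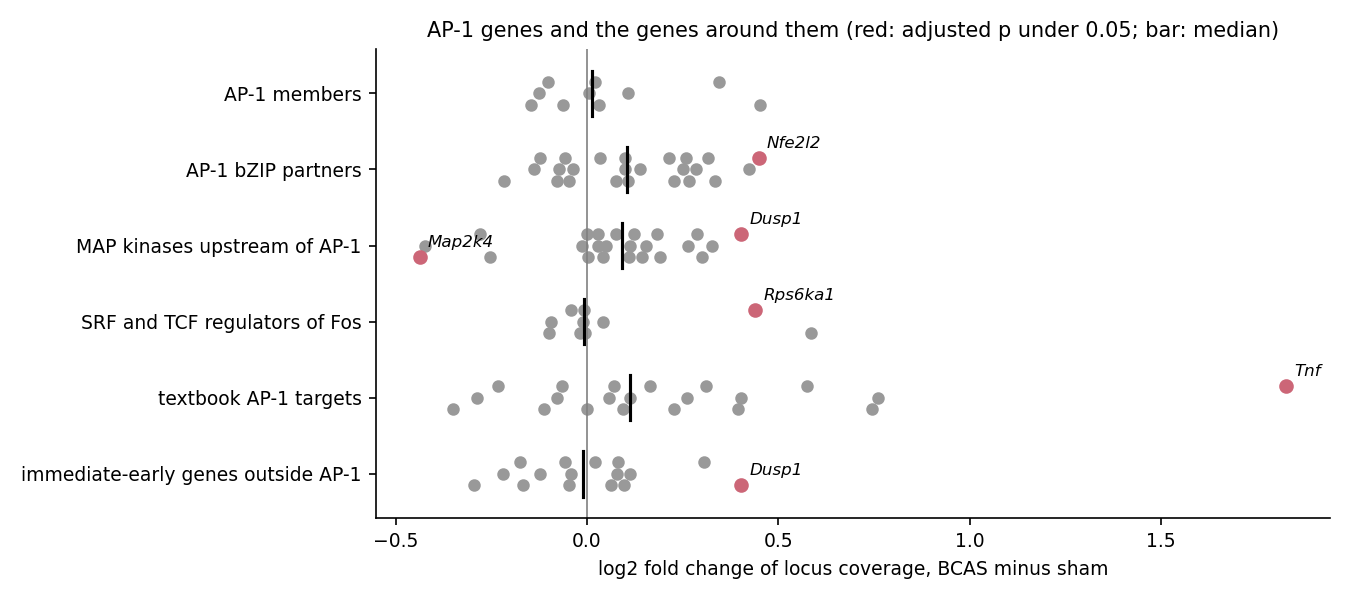
Log2 fold change of locus coverage, BCAS minus sham (horizontal axis), for each tested gene of the AP-1 family and of 5 lists around it (rows); red points passed limma with an adjusted p under 0.05, and vertical bars are list medians. The 10 members hold no red point and a median of 0.01, each other row holds 1 or 2 red points, and the value of Tnf is not a fold since all sham libraries are at 0 bp.

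Over the peaks of the whole genome, the site that AP-1 binds was less frequent in BCAS. Windows of 100 bp on each side of the summit held it in 11.91, 11.7, 11.95 and 11.95% of peaks in sham and 11.27, 10.97, 10.41 and 10.78% in BCAS, without overlap. The exact two-sided permutation p was 0.0286, the smallest that 4 against 4 allows, or 0.0429 adjusted over 3 motifs. BATF dimers bind a composite of an AP-1 site with an IRF element together with IRF4 or IRF8. This composite lay in 0.397% ± 0.0122 of sham and 0.356% ± 0.0164 of BCAS peaks (n = 4 each, exact permutation p = 0.0286, adjusted p = 0.0429). Every composite match holds an AP-1 site and was also counted as one, so the composite is no separate result. The adjusted p of 0.0429 of both rests on counting them as separate motifs. The cAMP response element lay in 0.614% ± 0.0556 and 0.591% ± 0.0306 (n = 4 each; exact permutation p = 0.514). Within the high and low GC classes the difference was -0.584 and -1.24 points for the AP-1 site and -0.0203 and -0.0556 points for the composite. With any 1 library left out the smallest possible p is 0.0571, and within 50 bp of the summit the adjusted p was 0.0857 for both.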

How the data were processed

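ATAC-seq of 8 cortex samples was used. According to the labels and the study's methods, the authors used Trim Galore, Bowtie2 2.3.4.3 (mm10), SAMtools 1.9 and MACS2, which called peaks in each library separately (options not given in the sources used here). Each deposited list gives positions, a fold enrichment ratio, -log10 p and -log10 q values (at least 1.309) and a score, all made by the authors. Positions, fold enrichment and -log10 q were used.

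Peaks on 21 chromosomes were analysed with Python 3.11.15, GENCODE vM21 (basic) and the GRCm38 sequence. Regions are peaks merged by an overlap of 1 bp. Lengths were scaled to equal library totals. Tests used limma 3.58.1 (R 4.3.3), checked on simulated data, on genes averaging 200 bp or more, and exact permutation over 70 labelings for motif shares. Members and lists were chosen with earlier results of these data known. Named were all members and, of each pathway list, the 2 genes of smallest p and every call. Other settings are in the closing section.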

Additional observations from a re-analysis of the deposited data

Results flagged for a closer look

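A library was noted where it stood apart from the other 3 of its group by Dixon's test at the 95% level, which chance alone gives in about 1 of 20 groups. Of 63 groups of 4 checked, 6 held such a library. The covered length of Atf3 was 2758 bp in sham 4, against 1706 to 1868 bp in the other sham libraries. The percentile of the strongest Jund peak was 56.1 in sham 4, against 69.7 to 70.9. That of Batf was 79.2 in sham 1, against 93.9 to 96.8 in the other sham libraries, and 96.7 in BCAS 4, against 98.9 to 99.3 in the other BCAS libraries. The promoter window of Batf held 229 bp of peaks in BCAS 1 and 0 bp in the other 3. The AP-1 site lay in 11.7% of the peaks of sham 2, against 11.91 to 11.95%. The cause was not tested for any of them.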

How the results depend on the processing

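Peak lists hold no reads, the depth of a library was not used, and the covered length of a locus moves with how many peaks were called. The comparison of widths as deposited (7 regions wider in BCAS and 0 in sham) was chosen after seeing the data. The 3 measures of the loci called 0 members, except that covered length called 1, Batf, with the number of peaks as a covariate, with lists of equal length and without scaling, and 2, Batf and Atf3, without sham 4. The cause was not tested for any difference given here.

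Over all genes, covered length rose at 536 and fell at 64. These counts were 245 and 8 with GC class in the model, 222 and 1 without scaling, and 348 and 24 with median-of-ratios scaling. With 1 library left out they ran from 298 to 662 and from 25 to 91. The promoter counts, 109 and 3, were 10 and 0 with GC class, 184 and 6 with 3 kb windows, 63 and 1 without scaling and 0 and 0 with a pseudocount of 50 bp (12 to 180 and 0 to 8 with 1 library left out). The percentile counts, 55 and 2, were 3 and 0 with GC class and 83 and 0 by -log10 q (0 to 111 and 0 to 4 with 1 library left out).

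Replicate numbers were not taken to pair the mice. Same-numbered libraries correlated at -0.16, -0.01, -0.10 and 0.14, and sham 4 correlated best with BCAS 4. These values cannot settle whether the mice were paired. With the replicate number as a block, the counts were 776 and 160 for covered length, 226 and 15 for promoters and 0 and 0 for percentiles.

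Some signs turned. With GC class in the model the covered length was -0.02 at Fosb, -0.11 at Junb and -0.03 at Jund, and the percentile of Fosb 1.0. Without flanks it was -0.04 at Fosb, -0.03 at Jund and -0.30 at Batf3. Without scaling it was 0.02 at Jun, and the promoter values were 0.06 at Fosb, 0.02 at Fosl2 and 0.00 at Jun. Jun was also 0.02 with the number of peaks as a covariate. Junb was -0.01 with median-of-ratios scaling and -0.06 with 10 kb flanks, where Trem2 was -0.11. The Fosb promoter was 0.01 at a -log10 q of 5 or more and the Junb promoter 0.01 with 3 kb. By -log10 q the percentiles were 1.1 at Fos, 1.2 at Fosb and 0.3 at Junb.

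With 1 library left out, covered length ran from -0.06 to 0.07 at Fosb, -0.13 to 0.02 at Jun, -0.05 to 0.08 at Junb and -0.04 to 0.09 at Jund. Promoter values ran from -0.06 to 0.05 at Fosb, -0.18 to 0.00 at Fosl1, -0.13 to 0.02 at Fosl2 and -0.14 to 0.00 at Jun and Jund, and percentiles from -2.2 to 1.4 at Fos and -2.6 to 3.5 at Jund. Batf stayed at 0.39 to 0.56 and Atf3 at 0.28 to 0.49.

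Regions called in every BCAS and no sham library were 0, or 1 (Batf region 4) without sham 4 and under the rule of at least 3 and at most 1. The motif differences within 50 bp were -0.87 points for the AP-1 site and -0.0222 for the composite. With 1 library left out they ran from -1.16 to -0.873 and from -0.0462 to -0.0331, and for the cAMP response element from -0.0407 to 0.00243.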
